A study of Homo sapiens with 16 samples.

Results

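Interferon-stimulated genes are the genes that cells switch on after interferon has been sensed, and 39 of them were followed here. A member was any gene on that list for which the deposited array table held a probe set (a group of oligonucleotide probes read together as 1 value) annotated with that gene alone. Of the 39 genes, 38 had such a probe set, out of 19775 genes tested on the whole array; STAT2 was not analysed here. Where a gene had several probe sets, the one with the highest mean over the 16 arrays stood for it, so 38 of the 64 probe sets of the members carry the results below.

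The arrays came from 4 groups of 4 biological replicates, named A to D. MDA-MB-231 cells treated with 2-deoxy-glucose (2DG, 50 mM) were set against MDA-MB-231 cells given water as vehicle, and MCF10A cells treated with 50 mM 2DG against MCF10A cells given vehicle, all for 24 h. MDA-MB-231 is a human line from a metastatic breast adenocarcinoma with mesenchymal features, and MCF10A is a non-tumorigenic human mammary epithelial line with basal features. 2DG is a glucose analogue that hexokinase phosphorylates and that glycolysis cannot use further, so it blocks glucose metabolism; it is also known to disturb the glycosylation of proteins. All groups were in medium with 17.5 mM glucose, but the media of the lines differed, since MDA-MB-231 cells received fetal bovine serum and MCF10A cells horse serum with hydrocortisone, cholera toxin, insulin and hEGF. In a comparison between the lines, the line and its medium therefore cannot be told apart.

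Type I interferons bind the receptor pair IFNAR1 and IFNAR2, whose kinases JAK1 and TYK2 start the signal inside the cell. A complex that holds IRF9 and STAT2 then binds the interferon-stimulated response element (ISRE) in promoters, while interferon gamma acts through the gamma-activated site (GAS). IRF family factors such as IRF1 and IRF7 can bind elements of the same kind. Many of the induced proteins restrict viruses: the IFIT proteins bind foreign RNA, the OAS enzymes trigger RNA decay, and ISG15 is a ubiquitin-like protein joined to other proteins. Epithelial cells can make and answer interferon, and many of these genes also have a level without any added interferon.

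The promoters of 5 members are shown because they hold an ISRE match and their 2DG responses ran in different directions: IFIT3 and SAMD9 were higher with 2DG in both lines, IFIT5 was lower in both, RSAD2 was higher in MCF10A, and ISG15 was lower in MDA-MB-231. Each sequence is the 250 bases before an annotated start of the gene in RefSeq (GRCh38.p14), written 5′ to 3′ on the gene's strand, with matches to the ISRE core, GAAA followed by NN (any 2 bases) and again GAAA, on either strand in capitals. They lie at chr10:89327747-89327996 (plus strand, IFIT3), chr7:93117980-93118229 (minus strand, SAMD9), chr10:89414318-89414567 (plus strand, IFIT5), chr2:6877527-6877776 (plus strand, RSAD2) and chr1:1013247-1013496 (plus strand, ISG15).
IFIT3: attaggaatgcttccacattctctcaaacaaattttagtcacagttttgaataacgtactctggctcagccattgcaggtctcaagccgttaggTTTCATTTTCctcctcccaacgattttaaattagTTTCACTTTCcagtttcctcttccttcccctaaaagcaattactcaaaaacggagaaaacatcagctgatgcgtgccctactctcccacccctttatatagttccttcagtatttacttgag
SAMD9: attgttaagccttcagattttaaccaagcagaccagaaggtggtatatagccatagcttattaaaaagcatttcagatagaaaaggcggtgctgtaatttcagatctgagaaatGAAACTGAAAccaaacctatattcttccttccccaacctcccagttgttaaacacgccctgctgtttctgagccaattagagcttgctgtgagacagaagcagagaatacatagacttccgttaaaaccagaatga
IFIT5: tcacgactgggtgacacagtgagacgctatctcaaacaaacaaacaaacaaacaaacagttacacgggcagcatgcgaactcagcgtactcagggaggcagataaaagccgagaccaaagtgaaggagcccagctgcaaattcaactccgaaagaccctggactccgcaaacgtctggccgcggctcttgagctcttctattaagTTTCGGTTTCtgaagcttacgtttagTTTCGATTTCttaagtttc
RSAD2: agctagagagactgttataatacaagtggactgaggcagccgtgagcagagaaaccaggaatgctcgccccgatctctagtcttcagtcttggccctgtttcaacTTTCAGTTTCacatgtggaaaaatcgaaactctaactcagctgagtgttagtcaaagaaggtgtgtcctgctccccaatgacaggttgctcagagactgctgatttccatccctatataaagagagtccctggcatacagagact
ISG15: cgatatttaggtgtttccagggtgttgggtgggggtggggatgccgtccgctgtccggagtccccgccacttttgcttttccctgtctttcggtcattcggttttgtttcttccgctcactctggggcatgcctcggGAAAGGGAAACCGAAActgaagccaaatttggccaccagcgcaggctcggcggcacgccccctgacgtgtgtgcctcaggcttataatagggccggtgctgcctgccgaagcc
In ISG15 the 2 matches overlap and appear as 1 run of capitals. IFIT3 and IFIT5 hold 2 separate matches each, SAMD9 and RSAD2 hold 1. IFIT3 and RSAD2 have 2 annotated starts each, and the window shown is 1 of these; the other IFIT3 window also holds 2 matches and the other RSAD2 window (chr2:6865635-6865884) holds 0.

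Among the 32 members with a promoter in the RefSeq table, STAT2 included, 19 held this ISRE core in the 250 bases before any of their starts, on one strand or the other (59.4%), against 1014 of 27305 genes (3.71%). The GAS letters TTCNNNGAA were found in 9 of the 32 (28.1%), against 2208 of the 27305 genes (8.09%). Members with and without the ISRE letters were called in both directions. Of the 19 members with a match, 8 were called higher and 5 lower with 2DG in MCF10A, and 6 higher and 5 lower in MDA-MB-231. Of the 12 measured members with a window but no match, 4 were called higher and 5 lower in MCF10A, and 6 higher and 2 lower in MDA-MB-231. Over all genes tested, 29% were called higher and 25.2% lower in MCF10A, and 25.5% higher and 25.4% lower in MDA-MB-231. A match describes letters only and was not tested as a binding site, and IFIT2, OAS2, OASL, MX2, TRIM22, USP18 and IRF7 had no window in the table.

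The deposited values are log2 intensities, so a log2 change of 1 means 2 times the signal, and values of different probe sets cannot be ranked against each other. Probe sets of the shared types are those whose probes may read several transcripts, of the same gene or of related genes. A gene was called when limma's adjusted p was under 0.05 over all 19775 genes. On vehicle, 7 of 7 measured basal epithelial markers were lower in MDA-MB-231 than in MCF10A, and 6 of 8 mesenchymal markers were higher, with CAV1 not called and SPARC lower (log2 difference -5.37). Of 5 measured immune cell markers, PTPRC, the leukocyte surface marker, averaged between 3.75 and 4.17 in the 4 groups, and CD3E, ITGAM and NCAM1 between 6.08 and 6.74. CD14 averaged 5.67 with 2DG and 5.59 with vehicle in MDA-MB-231, and 8.72 with 2DG and 8.10 with vehicle in MCF10A (called higher with 2DG there, 0.62). The part of these markers in the results was not tested. A measure of RNA quality moved with 2DG, since the log2 ratio of the actin 3′ to 5′ control probe sets was 1.03 ± 0.0714 with 2DG and 0.60 ± 0.331 with vehicle in MDA-MB-231, and 0.55 ± 0.0678 with 2DG and 0.39 ± 0.067 with vehicle in MCF10A (SD, n = 4 each). One vehicle array of MDA-MB-231, replicate B, had a ratio of 1.09 beside 2DG arrays between 0.97 and 1.13. With the ratio as a covariate, the calls of OASL in MCF10A, of OAS1 and HERC6 in MDA-MB-231 and of EIF2AK2 in the difference between the lines were lost, and IRF1 in MCF10A (-0.22) and DTX3L in MDA-MB-231 (-0.16) gained a call. In bulk RNA, fewer cells with a transcript and less transcript per cell cannot be told apart.

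In MCF10A cells, interferon-stimulated genes were called in both directions with 2DG, as were genes over the whole array. Of the 38 measured members, 15 rose, 12 fell and 11 were not called, so 71.1% were called, beside 54.2% of all genes tested (percent called in either direction). Higher calls took in 39.5% of the members and 29% of all genes, and lower calls 31.6% and 25.2%. The median log2 change over the members was 0.07, beside 0.02 over all genes, and the median size of change was 0.36 beside 0.20. The 4 arrays with 2DG and the 4 with vehicle did not overlap for 26 members, 15 of them higher and 11 lower with 2DG (51.6% of all genes did not overlap, 27.4% higher and 24.2% lower). On the chosen probe sets, a rise of 1 log2 unit or more was reached by RSAD2, SAMD9, IRF9 and IFIT2 (4 of 38, beside 5.39% of all genes). A fall of that size was reached by CMPK2 (1 of 38, beside 5.81%).

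RSAD2, whose product viperin makes a chain-terminating nucleotide against viral RNA synthesis, read 6.49, 6.29, 6.23 and 6.36 in the MCF10A 2DG arrays, against 4.51, 4.56, 4.65 and 4.53 in the vehicle arrays. All 2DG arrays stood more than 1 log2 unit above all vehicle arrays, a rise of 1.78 (SE 0.0607, adjusted p = 2.06e-13), and the gene's second probe set rose by 2.40. The vehicle values were under 6, the limit used here for dim genes, so the size of this rise is uncertain. SAMD9, a restriction factor of poxviruses, read 11.11, 11.12, 11.05 and 11.12 with 2DG, against 9.65, 9.57, 9.72 and 9.6 with vehicle. Its groups were far apart as well, with a rise of 1.47 (SE 0.043, adjusted p = 3.09e-14), and both of its probe sets gave the same size of change. IRF9, the DNA-binding subunit of the type I interferon complex, read 9.75, 9.56, 9.66 and 9.63 with 2DG, against 8.33, 8.21, 8.3 and 8.28 with vehicle. That was a rise of 1.37 (SE 0.0706, adjusted p = 3.76e-11), with every 2DG array above every vehicle array.

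IFIT2, an RNA-binding protein of the IFIT family, read 7.41, 7.41, 7.41 and 7.45 with 2DG, against 6.61, 6.21, 6.43 and 6.14 with vehicle. The 2DG arrays were nearly identical and all lay above the more scattered vehicle arrays, and the rise was 1.07 (SE 0.0751, adjusted p = 2e-09). IFI44L, an interferon-inducible protein of little-known function, read 6.37, 6.24, 6.64 and 6.15 with 2DG, against 5.45, 5.48, 5.45 and 5.4 with vehicle; it rose by 0.91 (SE 0.16, adjusted p = 0.000119). PARP14, a mono-ADP-ribosyltransferase, read 9.14, 9.0, 9.14 and 9.03 with 2DG, against 8.23, 8.31, 8.31 and 8.23 with vehicle. Neither gene had overlapping groups, and the PARP14 rise was 0.81 (SE 0.041, adjusted p = 3.16e-11). The mean of both PARP14 probe sets rose by 0.40, and by 0.24 in MDA-MB-231, as its dimmer probe set was not called in either line.

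CMPK2, a mitochondrial nucleotide kinase, went the other way. It read 5.58, 5.59, 5.93 and 5.54 in MCF10A cells with 2DG, against 6.89, 6.71, 6.99 and 6.69 with vehicle. The change was -1.16 (SE 0.11, adjusted p = 9.2e-08), and even the highest 2DG array, replicate C, lay below every vehicle array. USP18, the protease that removes ISG15 from proteins and dampens the interferon receptor, read 7.26, 7.27, 7.35 and 7.36 with 2DG, against 8.47, 8.06, 8.24 and 8.23 with vehicle, with a change of -0.94 (SE 0.15, adjusted p = 4.1e-05). The groups were again separate. HERC5, the ligase that attaches ISG15 to proteins, read 6.18, 6.08, 6.27 and 6.1 with 2DG, against 6.77, 6.73, 6.99 and 6.68 with vehicle. This was a change of -0.64 (SE 0.0618, adjusted p = 1.3e-07). The transcripts of the enzyme that adds ISG15 and of the enzyme that removes it thus both fell. The ISG15 transcript was not called, with -0.09 (SE 0.0472, adjusted p = 0.115). Protein was not measured.

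IFIT5, an IFIT protein that binds RNA with a triphosphate end, read 9.73, 9.65, 9.72 and 9.67 with 2DG, against 10.41, 10.38, 10.47 and 10.35 with vehicle, a change of -0.71 (SE 0.0355, adjusted p = 2.57e-11). The groups lay apart, but its second probe set, also a shared one, was not called in MCF10A (0.13), and the mean of both was -0.29. IFI35, an interferon-inducible leucine zipper protein, read 7.56, 7.55, 7.74 and 7.45 with 2DG, against 8.11, 8.11, 8.26 and 8.18 with vehicle, a change of -0.59 (SE 0.0591, adjusted p = 1.84e-07). IFI44 read 6.73, 6.54, 6.85 and 6.49 with 2DG, against 7.27, 7.29, 7.4 and 7.29 with vehicle, a change of -0.66 (SE 0.0676, adjusted p = 2.44e-07). The direction of IFI44 depends on the probe set, since its other probe set, which averaged 4.80 with 2DG and 4.09 with vehicle, rose by 0.72.

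Of the other members in MCF10A, the sensor IFIH1 (MDA5, which detects long double-stranded RNA) rose by 0.77, although its 2 dimmer probe sets fell by 1.49 and 1.06. The exonuclease ISG20 rose by 0.80, TRIM22 by 0.78, OAS1 and SAMD9L by 0.70 each, IFIT3 by 0.47, IRF7 by 0.35, IFI27 by 0.32 and DTX3L, the E3 ligase that partners PARP9, by 0.31. The smaller falls were EIF2AK2 (the RNA-activated kinase PKR, -0.38), the tetherin gene BST2 (-0.28), IFIT1 (-0.28), OASL (-0.21), HERC6 (-0.21) and IFI16 (-0.20). Among these the calls of IFIT1, OASL and HERC6 stood near the threshold, and each was lost when single arrays were left out, with adjusted p between 0.055 and 0.132. OASL also lost its call with the actin ratio as a covariate (-0.19, adjusted p = 0.0943). By role, the effectors that bind or cleave RNA had 4 rises and 4 falls of 10, the GTPases and restriction factors 4 and 2 of 9, the ubiquitin-related members 2 and 3 of 8, the sensors and transcription factors 3 and 1 of 5, and the remaining interferon-inducible proteins 2 and 2 of 6. Called rises and falls thus stood in each role, while 29% of all genes rose and 25.2% fell. In this grouping CMPK2 and TRIM22 were counted with the GTPases and restriction factors, and PARP14 with the ubiquitin-related members. The members not called were OAS2, OAS3, MX1, MX2, IFITM1, ISG15, TRIM21, PARP9, IRF1, IFI6 and XAF1. Their changes ran between -0.29 and 0.18. For OAS3 the second probe set fell by 0.67, and for IRF1 it rose by 0.20.

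**Figure D1:**
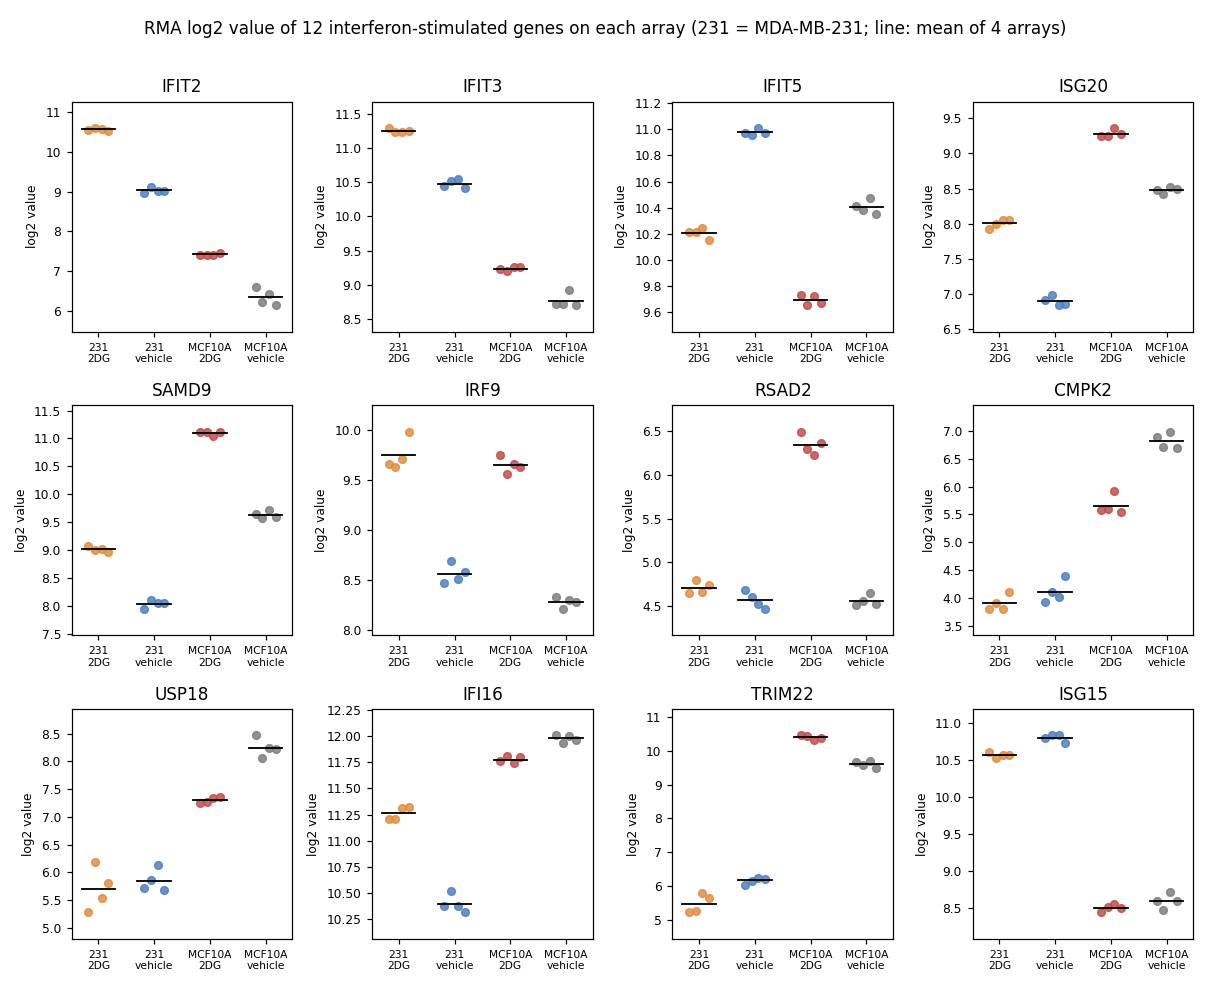
Log2 values (y axis) of 12 interferon-stimulated genes on every array, 1 panel a gene; points are the 4 arrays of each group and the bar is the group mean, with 2DG to the left of vehicle within each line. IFIT2, SAMD9 and IRF9 stand higher with 2DG in both lines and IFIT5 lower in both, while RSAD2 and CMPK2 move mainly in MCF10A and IFI16 stands higher with 2DG in MDA-MB-231 and slightly lower with 2DG in MCF10A.

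MDA-MB-231 cells also responded in both directions. Of the 38 members, 15 rose, 8 fell and 15 were not called, so 60.5% were called, beside 50.9% of all genes. Rises made up 39.5% of the members and 25.5% of all genes; falls made up 21.1% and 25.4%. The median size of change was 0.38, beside 0.17 over all genes, and the signed median was 0.02, beside 0.03. Without overlap between the 2DG and vehicle arrays were 22 members, 14 higher and 8 lower with 2DG (46.9% of all genes, 22.9% higher and 24% lower). On the chosen probe sets, IFIT2, IRF9 and ISG20 rose by 1 log2 unit or more (3 of 38, beside 3.05% of all genes). No member fell by as much on those sets (0 of 38, beside 4.74%). On other probe sets, EIF2AK2 fell by 1.33 and IFIT5 by 1.01, while IFI16 rose by 1.25 and IFI44 by 1.19.

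In MDA-MB-231, IFIT2 read 10.55, 10.6, 10.58 and 10.54 with 2DG, against 8.97, 9.11, 9.02 and 9.02 with vehicle. All 4 treated arrays lay more than 1 log2 unit above the vehicle arrays, a rise of 1.54 (SE 0.0751, adjusted p = 2.85e-11). IRF9 read 9.66, 9.63, 9.71 and 9.98 with 2DG, against 8.47, 8.69, 8.51 and 8.58 with vehicle, and its rise was 1.18 (SE 0.0706, adjusted p = 3.47e-10). The 2DG arrays of ISG20, which encodes an exonuclease that degrades single-stranded RNA, read 7.93, 8.0, 8.05 and 8.06, against 6.92, 6.99, 6.84 and 6.86 with vehicle. None of these groups overlapped, and ISG20 rose by 1.11 (SE 0.0434, adjusted p = 1.99e-12).

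SAMD9 read 9.08, 9.01, 9.02 and 8.97 with 2DG, against 7.95, 8.11, 8.05 and 8.06 with vehicle, a rise of 0.98 (SE 0.043, adjusted p = 7.99e-12). IFI16, a nuclear DNA sensor that acts with STING, read 11.21, 11.21, 11.31 and 11.32 with 2DG, against 10.37, 10.52, 10.37 and 10.31 with vehicle. Its rise was 0.87 (SE 0.045, adjusted p = 5.83e-11), and all 3 of its probe sets, which are of shared types, rose. IRF7, the factor that amplifies type I interferon genes, read 8.86, 8.85, 8.82 and 8.9 with 2DG, against 8.01, 8.14, 7.91 and 8.08 with vehicle. The groups stood apart, and IRF7 rose by 0.82 (SE 0.0754, adjusted p = 7.4e-08).

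On the chosen probe sets, the falls in MDA-MB-231 were smaller. IFIT5 read 10.21, 10.21, 10.24 and 10.15 with 2DG, against 10.97, 10.96, 11.01 and 10.97 with vehicle, a change of -0.78 (SE 0.0355, adjusted p = 1.29e-11), and its second probe set fell by 1.01. TRIM22, an antiviral ubiquitin ligase, read 5.23, 5.26, 5.8 and 5.67 with 2DG, against 6.05, 6.17, 6.24 and 6.23 with vehicle. The 2DG arrays were spread from 5.23 to 5.80 and still lay below all vehicle arrays, with a change of -0.68 (SE 0.104, adjusted p = 2.81e-05). These 2DG values were under 6, so the size of this fall is uncertain. PARP9, the partner of DTX3L, read 6.75, 6.44, 6.63 and 6.64 with 2DG, against 7.21, 7.35, 7.31 and 7.18 with vehicle, a change of -0.65 (SE 0.0667, adjusted p = 3.09e-07). Its other probe set, which is not of a shared type, was not called (-0.04, adjusted p = 0.804).

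IFI35 read 7.64, 7.71, 7.8 and 7.79 with 2DG, against 8.32, 8.44, 8.34 and 8.32 with vehicle, and changed by -0.62 (SE 0.0591, adjusted p = 1.19e-07). BST2, whose product tethers budding virions to the cell surface, read 9.75, 9.78, 9.7 and 9.8 with 2DG, against 10.22, 10.22, 10.23 and 10.19 with vehicle, a change of -0.46 (SE 0.0403, adjusted p = 4.5e-08). ISG15 read 10.61, 10.53, 10.57 and 10.56 with 2DG, against 10.79, 10.83, 10.83 and 10.72 with vehicle. That small change of -0.23 (SE 0.0472, adjusted p = 0.000657) came without overlap between the groups, as did those of IFI35 and BST2.

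The remaining rises in MDA-MB-231 were IFIT3 (0.77), TRIM21 (the cytosolic antibody receptor, 0.75), the dynamin-like GTPase MX1 (0.70), IRF1 (0.67), IFIH1 (0.60), OAS1 (0.50), OASL (0.49), PARP14 (0.49) and HERC6 (0.30). OAS1 and HERC6 lost their calls when the actin ratio was a covariate, with 0.28 (adjusted p = 0.266) for OAS1 and 0.25 (adjusted p = 0.0876) for HERC6. OAS1 also read -0.29 on its other probe set and IFIH1 fell by 0.25 on one of its others. IFITM1 (-0.21) and EIF2AK2 (-0.22) were the remaining falls, and EIF2AK2 fell by 1.33 on its brighter unshared probe set. All 5 measured sensors and transcription factors rose. The GTPases and restriction factors had 2 rises and 3 falls of 9 and the ubiquitin-related members 3 and 2 of 8. The RNA effectors had 5 and 2 of 10, and the remaining proteins 0 and 1 of 6. Over all genes, 25.5% rose and 25.4% fell, and these sets are small. Of the 8 members that fell, 6 had only probe sets of the types that can read related transcripts or, for PARP9, fell only on such a set, and without those types 2 falls were left, EIF2AK2 and BST2, among 31 members with a value. The 15 members not called in MDA-MB-231 ran between -0.21 and 0.14; they included RSAD2 (0.14), CMPK2 (-0.21), USP18 (-0.15), IFI44 (0.14, though its unshared probe set rose by 1.19), HERC5 (-0.07) and IFI44L (-0.11).

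**Figure D2:**
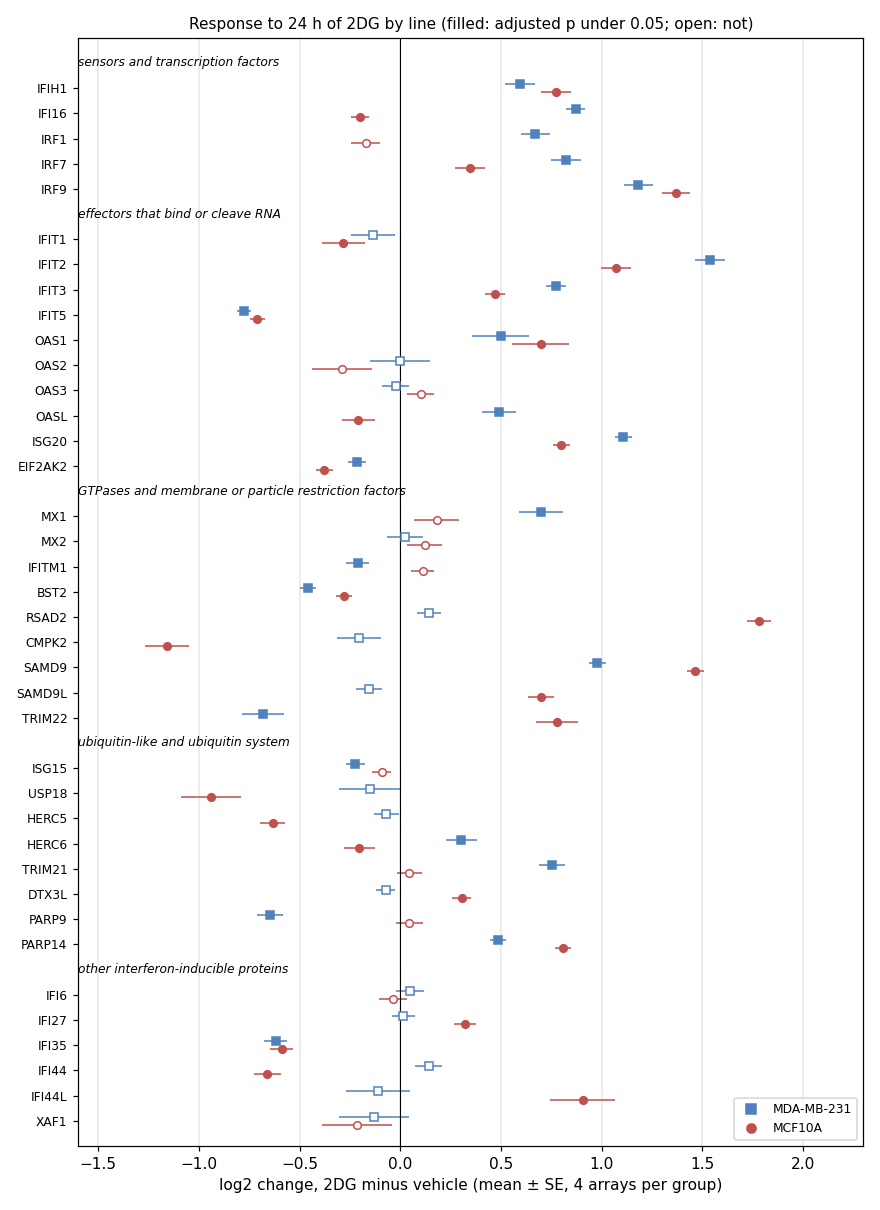
Log2 change with 2DG (x axis, 2DG minus vehicle) of the 38 measured members, grouped by role, in MDA-MB-231 and in MCF10A; points are fitted changes, filled where called, and bars their standard errors. All 5 sensors and transcription factors lie above 0 in MDA-MB-231, and RSAD2, TRIM22 and IFI44L lie farther right in MCF10A.

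Across the lines, 9 members rose in both on the chosen probe sets (23.7%, beside 15.3% of all genes): IFIT2, IFIT3, OAS1, ISG20, SAMD9, PARP14, IFIH1, IRF7 and IRF9. Of these, OAS1 read -0.29 on its other probe set in MDA-MB-231, and IFIH1 read -1.49 and -1.06 on its dimmer probe sets in MCF10A. A further 4 fell in both (10.5%, beside 15.9%): IFIT5, EIF2AK2, BST2 and IFI35. The second IFIT5 probe set was not called in MCF10A (0.13). TRIM22 was the 1 member that rose in MCF10A and fell in MDA-MB-231 (2.63%, beside 4.64%). Its only probe set is of a shared type and averaged 5.49 with 2DG in MDA-MB-231, under the limit for dim genes. OASL, HERC6 and IFI16 fell in MCF10A and rose in MDA-MB-231 (7.89%, beside 3.59%). The MCF10A calls of OASL and HERC6 stood near the threshold and were lost when single arrays were left out. With the actin ratio as a covariate, OASL lost its MCF10A call and HERC6 its MDA-MB-231 call. OAS2, OAS3, MX2, IFI6 and XAF1 were called in neither on the chosen probe sets, though the second OAS3 probe set fell in both (-0.67 in MCF10A, -0.62 in MDA-MB-231).

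The difference of the responses, MDA-MB-231 minus MCF10A, was tested as an interaction and called for 26 of the 38 members (68.4%), beside 45.8% of all genes. In 15 the response was higher in MDA-MB-231 (22.3% of all genes) and in 11 it was lower (23.6%). On the chosen probe sets, a difference of 1 log2 unit or more was reached by 1 member upwards (beside 3.74% of all genes) and 3 downwards (beside 5.16%). IFI16 led the first set with a difference of 1.07 (SE 0.0637, adjusted p = 6.88e-10), from a rise in MDA-MB-231 and a small fall in MCF10A. CMPK2 followed with 0.96 (SE 0.155, adjusted p = 7.12e-05), IRF1 with 0.84 (SE 0.103, adjusted p = 3.49e-06), IFI44 with 0.80 (SE 0.0956, adjusted p = 2.6e-06) and USP18 with 0.79 (SE 0.212, adjusted p = 0.00562). On the chosen probe sets of CMPK2, IFI44 and USP18, the difference lay in falls in MCF10A without a call in MDA-MB-231. The other IFI44 probe set rose in both lines, by 0.72 in MCF10A and 1.19 in MDA-MB-231, a difference of 0.47. CMPK2 and USP18 averaged under 6 in MDA-MB-231 with 2DG and with vehicle, where a missing call says little. IRF1, the factor that responds to both interferon types, read 8.98, 9.22, 9.22 and 9.26 with 2DG and 8.36, 8.71, 8.48 and 8.45 with vehicle in MDA-MB-231, and 7.74, 7.86, 7.81 and 7.79 with 2DG and 7.95, 7.88, 8.07 and 7.99 with vehicle in MCF10A. Its MDA-MB-231 groups were separate and higher with 2DG. In MCF10A the arrays did not overlap either, in the opposite order, without a call (adjusted p = 0.0582). The second IRF1 probe set rose by 0.20 in MCF10A, and its difference of response was 0.395, so the direction in MCF10A depends on the probe set.

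RSAD2 had the most negative difference, -1.64 (SE 0.0859, adjusted p = 1.59e-10). In MDA-MB-231 it read 4.65, 4.8, 4.66 and 4.74 with 2DG, against 4.69, 4.6, 4.52 and 4.47 with vehicle, so those groups overlapped where the MCF10A groups had been far apart. The MDA-MB-231 values were all under 6, which leaves the size of the difference uncertain. TRIM22 differed by -1.46 (SE 0.147, adjusted p = 3.61e-07), and in MCF10A it read 10.45, 10.44, 10.3 and 10.37 with 2DG, against 9.65, 9.59, 9.7 and 9.5 with vehicle. Its MDA-MB-231 2DG arrays were under 6, so the size of this difference is also uncertain. The next were IFI44L with -1.02 (SE 0.227, adjusted p = 0.00131), SAMD9L with -0.86 (SE 0.0919, adjusted p = 7.75e-07) and PARP9 with -0.69 (SE 0.0943, adjusted p = 1.11e-05). SAMD9L, a relative of SAMD9 that inhibits translation, read 6.91, 6.91, 7.04 and 6.91 with 2DG and 7.0, 7.09, 7.26 and 7.05 with vehicle in MDA-MB-231, and 7.25, 7.17, 7.08 and 7.26 with 2DG and 6.38, 6.56, 6.61 and 6.42 with vehicle in MCF10A. Only the MCF10A groups lay apart. For SAMD9L a dimmer probe set gave a difference of 0.66, opposite in sign, and for PARP9 the other probe set gave 0.31, which was not called. Of the 9 members grouped as GTPases and restriction factors, 6 had a lower response in MDA-MB-231 and 2 a higher one (66.7% and 22.2%, beside 23.6% and 22.3% of all genes). This group holds CMPK2, a nucleotide kinase, and the ubiquitin ligase TRIM22. Of the 10 RNA effectors, 5 had a higher response in MDA-MB-231 and 0 a lower one on the chosen probe sets (50% and 0%). These counts depend on the probe set. EIF2AK2 changed sign to -0.63 on its unshared probe set, and the second probe sets of OAS1 and IFIT5 gave differences of -1.135 each.

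Several members are chromosome neighbours, and neighbours did not always respond alike. On chromosome 10, IFIT2, IFIT3, IFIT1 and IFIT5 lie in this order, with 1 other protein-coding gene between IFIT3 and IFIT1. IFIT2 and IFIT3 rose in both lines and IFIT5 fell in both, while IFIT1 fell slightly in MCF10A and was not called in MDA-MB-231. On chromosome 2, CMPK2 and RSAD2 are adjacent; in MCF10A, RSAD2 rose by 1.78 and CMPK2 changed by -1.16. IFI44L and IFI44, adjacent on chromosome 1, changed by 0.91 and -0.66 in MCF10A, the second with the probe set reservation above. The pair SAMD9 and SAMD9L on chromosome 7 rose together in MCF10A, and in MDA-MB-231 SAMD9 alone was called on the chosen probe sets. A dimmer SAMD9L probe set rose by 0.71 in MDA-MB-231 and was not called in MCF10A (0.05). Of PARP9, DTX3L and PARP14 on chromosome 3, PARP14 rose in both lines, DTX3L rose in MCF10A, and PARP9 fell in MDA-MB-231. HERC6 and HERC5 on chromosome 4 both fell in MCF10A. On the chosen probe sets, the OAS cluster on chromosome 12 had called changes for OAS1 but not OAS3 or OAS2. The second OAS3 probe set changed by -0.67 in MCF10A and -0.62 in MDA-MB-231, and the second OAS1 probe set was not called in MDA-MB-231 (-0.29). The MX pair on chromosome 21 had a called change for MX1 in MDA-MB-231 but not for MX2.

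**Figure D3:**
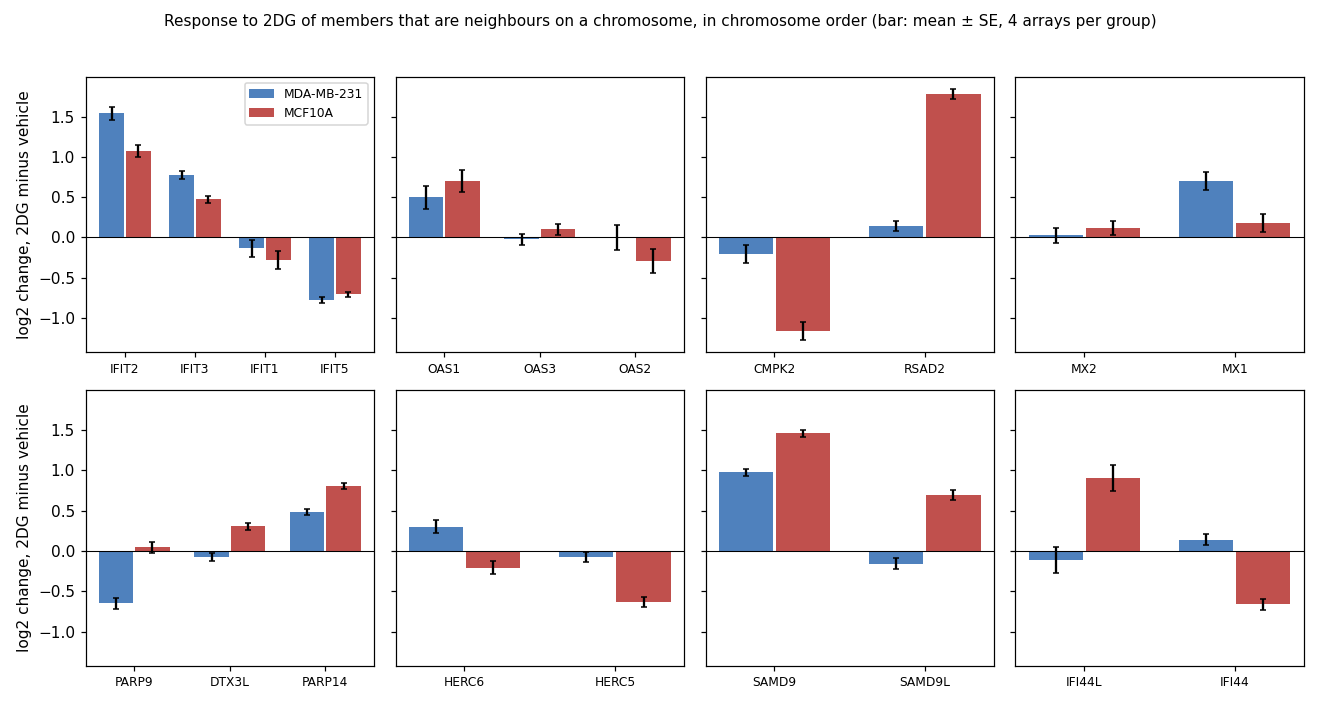
Log2 change with 2DG (y axis, 2DG minus vehicle, columns are fitted changes and whiskers standard errors) of members that are chromosome neighbours, drawn in RefSeq order, in MDA-MB-231 and MCF10A. IFIT2 and IFIT3 lie above 0 and IFIT5 below 0 in both lines, and RSAD2 and CMPK2 lie on opposite sides of 0 in MCF10A.

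The lines already differed in most of these genes without 2DG. On vehicle, 18 of the 38 members were higher in MDA-MB-231 than in MCF10A, 15 were lower and 5 were not called, so 86.8% were called beside 56% of all genes. A log2 difference of 1 or more was reached by 10 members upwards (beside 6.76% of all genes) and 13 downwards (beside 6.19%). The vehicle arrays of the lines did not overlap for the 33 called members, 18 higher and 15 lower in MDA-MB-231 (52.7% of all genes, 27.8% higher and 24.9% lower). The called shares in each direction over all genes were 29.2% higher and 26.8% lower. The median size of the difference was 1.31, beside 0.21 over all genes. No direction dominated, with a signed median of 0.09 over the members and 0 over all genes.

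IFIT2 averaged 9.03 ± 0.0583 (SD, n = 4) on vehicle in MDA-MB-231 and 6.35 ± 0.214 (SD, n = 4) in MCF10A, a difference of 2.68 (SE 0.0751, adjusted p = 1.48e-14). HERC5 read 9.37, 9.39, 9.27 and 9.31 in MDA-MB-231, against 6.77, 6.73, 6.99 and 6.68 in MCF10A, a difference of 2.54 (SE 0.0618, adjusted p = 2.54e-15). ISG15 read 10.79, 10.83, 10.83 and 10.72 in MDA-MB-231, against 8.59, 8.48, 8.72 and 8.59 in MCF10A, and differed by 2.20 (SE 0.0472, adjusted p = 5.7e-16). ISG15 and its ligase HERC5 were thus both higher in MDA-MB-231, with no overlap between the lines. OAS2, one of the enzymes that make the activator of RNase L, read 7.12, 7.36, 7.09 and 7.19 in MDA-MB-231, against 5.4, 5.21, 5.01 and 4.58 in MCF10A, a difference of 2.14 (SE 0.15, adjusted p = 1.95e-09). Its other 2 probe sets differed by 0.05 and 0.04 and were not called.

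IFIT1, which binds RNA lacking the host cap methylation, read 8.64, 8.95, 8.8 and 8.48 in MDA-MB-231, against 6.7, 6.36, 6.46 and 6.8 in MCF10A, a difference of 2.14 (SE 0.109, adjusted p = 3.12e-11). IFIT3, a partner of IFIT1 and IFIT2, read 10.45, 10.52, 10.54 and 10.41 in MDA-MB-231, against 8.72, 8.72, 8.93 and 8.7 in MCF10A, a difference of 1.71 (SE 0.0484, adjusted p = 1.66e-14). With IFIT5 higher by 0.58, all 4 IFIT genes were higher in MDA-MB-231. Also higher were XAF1 (1.51), IFITM1 (1.51), IFI44 (1.25), IRF7 (1.12), BST2 (0.74), SAMD9L (0.61), IRF1 (0.53), IFI6 (0.43), MX1 (0.40), IRF9 (0.28) and IFI35 (0.19). For IRF1 the second probe set had the opposite sign, with -0.18.

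TRIM22 was furthest the other way. It averaged 6.17 ± 0.0873 (SD, n = 4) in MDA-MB-231 and 9.61 ± 0.086 (SD, n = 4) in MCF10A, a difference of -3.44 (SE 0.104, adjusted p = 3.91e-14). CMPK2 averaged 4.11 ± 0.201 (SD, n = 4) in MDA-MB-231 and 6.82 ± 0.145 (SD, n = 4) in MCF10A, a difference of -2.71 (SE 0.11, adjusted p = 1.57e-12). OAS1 read 4.94, 5.56, 5.28 and 5.16 in MDA-MB-231, against 8.02, 7.62, 7.95 and 7.75 in MCF10A, and differed by -2.60 (SE 0.141, adjusted p = 6.59e-11). For these 3 genes the MCF10A vehicle arrays all lay more than 2 log2 units above the MDA-MB-231 vehicle arrays.

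IFIH1 read 6.09, 6.32, 6.14 and 5.98 in MDA-MB-231, against 8.79, 8.65, 8.65 and 8.6 in MCF10A, a difference of -2.54 (SE 0.0733, adjusted p = 2.14e-14). USP18 averaged 5.86 ± 0.206 (SD, n = 4) in MDA-MB-231 and 8.25 ± 0.168 (SD, n = 4) in MCF10A, a difference of -2.40 (SE 0.15, adjusted p = 4.51e-10). HERC6, a relative of HERC5, read 7.29, 7.29, 7.25 and 6.98 in MDA-MB-231, against 8.94, 8.87, 9.12 and 8.96 in MCF10A, a difference of -1.77 (SE 0.0773, adjusted p = 4.15e-12). The neighbours HERC5 and HERC6 therefore differed in opposite directions between the lines. Lower in MDA-MB-231 were also SAMD9 (-1.59), IFI16 (-1.59), ISG20 (-1.58), PARP9 (-1.46), OAS3 (-1.34), DTX3L (-1.28), PARP14 (-1.11), TRIM21 (-0.90) and IFI44L (-0.54). By role, 6 of the 8 ubiquitin-related members were lower in MDA-MB-231 and 2 were higher (75% and 25%, beside 26.8% and 29.2% of all genes). Of the 6 remaining interferon-inducible proteins, 4 were higher and 1 lower (66.7% and 16.7%, beside 29.2% and 26.8%). OASL, EIF2AK2, MX2, RSAD2 and IFI27 were not called, with differences between -0.11 and 0.09, though EIF2AK2 differed by -0.66 on its unshared probe set. This comparison shares its vehicle arrays with both 2DG comparisons, so the values are given side by side without a test of their relation.

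**Figure D4:**
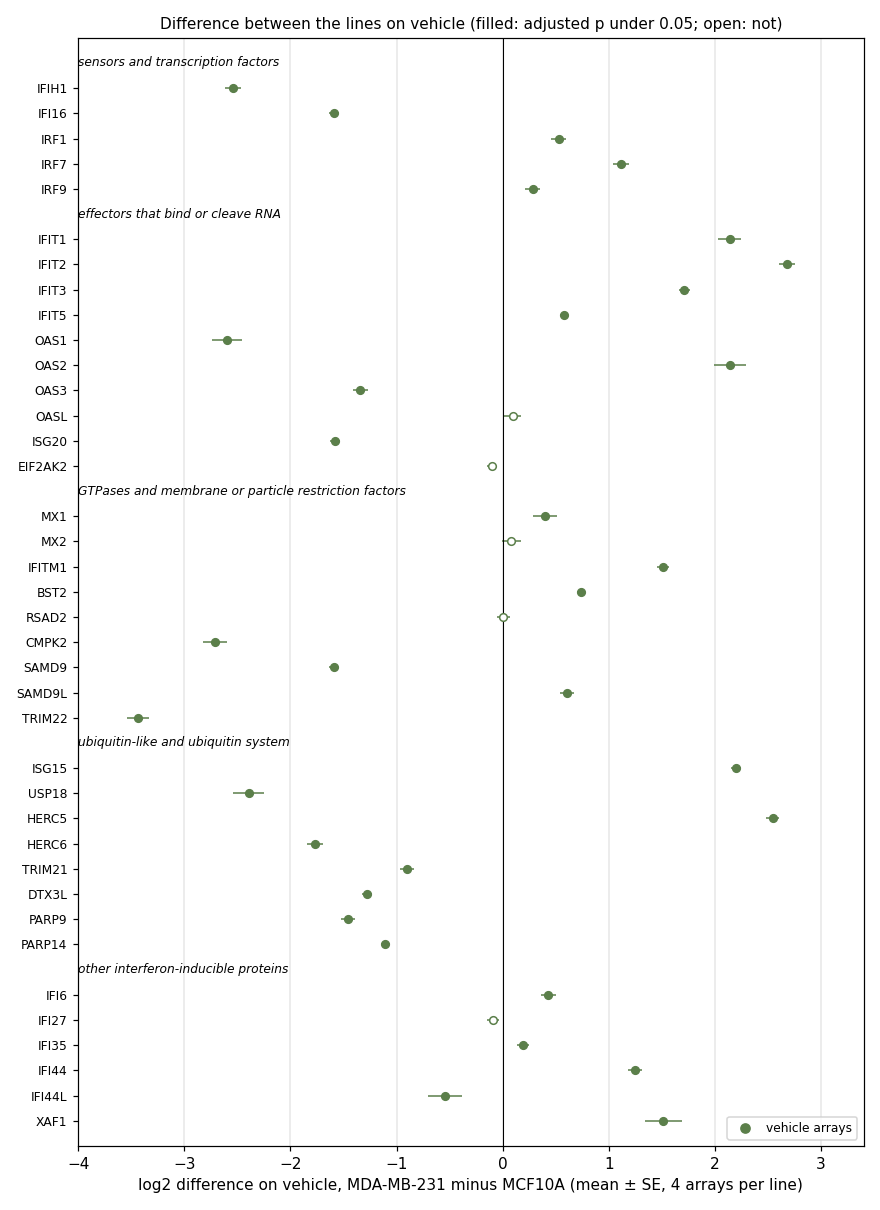
Log2 difference on vehicle (x axis, MDA-MB-231 minus MCF10A; points are filled where called, bars are standard errors) of the 38 measured members. IFIT2, HERC5 and ISG15 lie farthest to the right, where MDA-MB-231 is higher, and TRIM22, CMPK2 and OAS1 farthest to the left.

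Around the members, 146 other genes of interferon signalling were listed by role and 132 had a value. The 18 measured interferon ligand genes had 2 higher and 0 lower calls with 2DG in MDA-MB-231 (11.1% called, beside 50.9% of all genes) and 3 higher and 1 lower in MCF10A (22.2%, beside 54.2%), and the change furthest from 0 was IFNE in MCF10A (0.53). IFNB1, the type I gene that most cells induce first, was called in neither line, with -0.08 in MDA-MB-231 and -0.05 in MCF10A. Apart from IFNA17, these ligand probe sets averaged under 6 in all 4 groups, where a missing call says little about the genes. Most interferon alpha genes are close copies of each other, and their probe sets may not tell them apart. The 9 receptor and kinase genes had 4 rises and 2 falls in MDA-MB-231 (44.4% and 22.2%, beside 25.5% and 25.4% of all genes). In MCF10A they had 5 rises and 2 falls (55.6% and 22.2%, beside 29% and 25.2%). JAK1, the kinase shared by the interferon receptors, rose by 0.54 in MDA-MB-231 and 1.07 in MCF10A, and IFNGR1, the ligand-binding chain of the interferon gamma receptor, by 0.67 and 1.08 in the same order. Both were named outside the rule for pathway genes given below. The falls were IFNAR2 in both lines (-0.18 in MDA-MB-231 and -0.22 in MCF10A), TYK2 in MDA-MB-231 (-0.25) and IFNGR2 in MCF10A (-0.53).

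Among 14 sensors and adaptors, 8 rose and 3 fell in MDA-MB-231 (57.1% and 21.4%, beside 25.5% and 25.4% of all genes). In MCF10A, 4 rose and 4 fell (28.6% each way, beside 29% and 25.2%). TLR4, the lipopolysaccharide receptor, rose by 2.79 (SE 0.125, adjusted p = 9.93e-12) in MDA-MB-231 and was not called in MCF10A (-0.09). STING1, the adaptor of cytosolic DNA sensing, rose by 1.39 (SE 0.069, adjusted p = 3.44e-11) in MDA-MB-231 and changed by -0.25 in MCF10A. The differences of response were 2.87 (SE 0.177, adjusted p = 1.04e-09) for TLR4 and 1.64 (SE 0.0976, adjusted p = 7.01e-10) for STING1. CGAS, the DNA sensor that feeds STING1, changed by -0.48 in MDA-MB-231 and by -1.77 (SE 0.101, adjusted p = 1.47e-10) in MCF10A; without probe sets of the shared types its MCF10A change was -0.32. Of the 8 measured transcription factors outside the members, 4 rose and 1 fell in MDA-MB-231, and 2 rose and none fell in MCF10A. Of 12 brakes, 5 rose and 5 fell in MDA-MB-231, and 7 rose and 4 fell in MCF10A. SOCS3, which inhibits JAK kinases, changed by -1.53 (SE 0.0661, adjusted p = 4.18e-12) in MCF10A, or -0.41 as the mean of its probe sets.

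Of 18 measured antigen presentation genes, 9 rose and 5 fell in MDA-MB-231 (50% and 27.8%, beside 25.5% and 25.4% of all genes). In MCF10A, 7 rose and 6 fell (38.9% and 33.3%, beside 29% and 25.2%). The class I genes HLA-B, HLA-C, HLA-E, HLA-F and HLA-G rose in both lines, by 0.32 to 0.86 in MDA-MB-231 and 0.38 to 0.79 in MCF10A, and the probe sets of these close relatives may read each other's transcripts. PSMB8 and PSMB9, subunits of the immunoproteasome, fell in both, by 0.47 and 0.62 in MDA-MB-231 and 0.72 and 0.80 in MCF10A. These HLA and PSMB genes were singled out after their values were seen.

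The list of 53 further measured interferon-stimulated genes had 22 rises and 10 falls in MDA-MB-231 (41.5% and 18.9%, beside 25.5% and 25.4% of all genes), and 19 rises and 15 falls in MCF10A (35.8% and 28.3%, beside 29% and 25.2%). GBP2, an interferon-inducible GTPase, rose by 1.24 in MDA-MB-231 and by 2.75 (SE 0.0747, adjusted p = 1.29e-14) in MCF10A, a difference of -1.50 (SE 0.106, adjusted p = 5.19e-09). TNFSF10, which encodes the death ligand TRAIL, fell in MDA-MB-231 (-0.79) and rose by 2.13 (SE 0.0812, adjusted p = 8.56e-13) in MCF10A, a difference of -2.91 (SE 0.115, adjusted p = 5.67e-12). WARS1, the tryptophanyl-tRNA synthetase, rose by 1.31 in MDA-MB-231 and 1.62 (SE 0.0367, adjusted p = 1.5e-15) in MCF10A. In MDA-MB-231 the inflammatory caspase gene CASP4 rose by 1.64 (SE 0.043, adjusted p = 2.09e-14) and the capsid-binding restriction factor gene TRIM5 by 1.52 (SE 0.0442, adjusted p = 6.62e-14). TRIM14 changed by -2.57 (SE 0.0467, adjusted p = 6.56e-16) there, but without probe sets of the shared types the value was 0.04. SLFN12 differed in its response by 1.81 (SE 0.0798, adjusted p = 2.11e-11), with a rise in MDA-MB-231 (0.70) and a fall in MCF10A (-1.12).

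On vehicle, the pathway genes furthest apart between the lines were CASP1, LAMP3, SOCS3, SLFN5 and STING1. CASP1, the protease of the inflammasome, differed by -3.47 (SE 0.105, adjusted p = 3.92e-14) between MDA-MB-231 and MCF10A, LAMP3 by -3.26 (SE 0.0956, adjusted p = 2.66e-14), SLFN5 by -2.61 (SE 0.0846, adjusted p = 9.26e-14) and STING1 by -2.27 (SE 0.069, adjusted p = 4.17e-14), all lower in MDA-MB-231. SOCS3 was higher in MDA-MB-231 by 3.00 (SE 0.0661, adjusted p = 7.85e-16), or by 1.18 as the mean of its 4 probe sets. Of the 53 further interferon-stimulated genes, 12 were higher and 27 lower in MDA-MB-231 on vehicle (22.6% and 50.9%, beside 29.2% and 26.8% of all genes). Of the 9 receptor and kinase genes, 2 were higher and 7 lower (22.2% and 77.8%).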

How the data were processed

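The deposited table holds log2 intensities of 54675 probe sets on 16 Affymetrix arrays, which the authors made with RMA (background correction, quantile normalization and summary of probes), per the submitters' processing notes; its version was not stated there. The values ran between 2.38 and 15.15, and 4 arrays a group limit the precision. Probe sets were named from the platform annotation: 41097 had 1 gene, 1801 several and 11777 no row, and 62 were controls. The highest-mean probe set stood for each of 19775 genes. The tests used limma 3.58.1 (R 4.3.3) on the means of the 4 groups, all 16 arrays in 1 fit (12 residual degrees of freedom), with Benjamini-Hochberg adjustment over all genes; a call is an adjusted p under 0.05. The fit was tested on simulated data.

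The members, pathway lists and marker lists were chosen with earlier results of these data known. Named were, per comparison, up to 6 called members that rose and 6 that fell with the largest changes, 5 each way for the difference of responses, up to 5 pathway genes, and members whose probe sets differed in direction; the genes plotted by array were picked from these. Alternatives changed the probe sets (without the shared types, whose names end in _x_at or _s_at, or the mean of all), the moderation of variances, a filter on dim genes, scaling, covariates and the arrays used. The main fit did not use the replicate letters A to D to pair the arrays. Same-letter deviations correlated between 0.04 and 0.088 in MCF10A, where each array correlated best with its own letter. In MDA-MB-231 they correlated between -0.099 and 0.019, and only replicate C correlated best with its own letter. Whether the letters mark paired cultures was not tested. The labels call the replicates independent biological ones. Within a group, at most 3.58% of values were identical between 2 arrays. No extraction or scan batch was named in the labels used here.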

Additional observations from a re-analysis of the deposited data

Results flagged for a closer look

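Single arrays stood apart from the other 3 of their group in 19 of 191 groups of 4 arrays looked at, by Dixon's criterion for a single extreme value; chance alone gives about 1 in 20. In MCF10A with 2DG these were CMPK2 on replicate C (5.93, the others 5.54 to 5.59), SAMD9 on C (11.05, the others 11.11 to 11.12), IFI27 on C (7.87, the others 7.69 to 7.72) and IFIT2 on D (7.45, the others at 7.41). In MCF10A with vehicle they were IFIT3 on C (8.93), IFI44 on C (7.40), MX2 on A (5.56) and SOCS3 on B (6.44). In MDA-MB-231 with 2DG they were SAMD9L on C (7.04), PARP14 on C (7.60), MX2 on B (5.95) and IRF1 on A (8.98). In MDA-MB-231 with vehicle they were EIF2AK2 on A (9.88), SLFN12 on A (9.23), LAMP3 on A (4.05), IFI35 on B (8.44), XAF1 on B (5.89), MX2 on D (5.80) and HERC6 on D (6.98). Most of these departures were under 0.3 log2 units.

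The 2DG response differed between the lines by the interaction test for 26 members and for 5 named pathway genes; the values are log2 differences of response, MDA-MB-231 minus MCF10A. Among the members that bind or cleave RNA they were 0.70 for OASL, 0.47 for IFIT2, 0.31 for ISG20, 0.30 for IFIT3 and 0.16 for EIF2AK2. In the group of GTPases and restriction factors they were 0.96 for CMPK2, 0.52 for MX1, -0.18 for BST2, -0.32 for IFITM1, -0.49 for SAMD9, -0.86 for SAMD9L, -1.46 for TRIM22 and -1.64 for RSAD2. In the ubiquitin-related set they were 0.79 for USP18, 0.71 for TRIM21, 0.57 for HERC5, 0.51 for HERC6, -0.32 for PARP14, -0.38 for DTX3L and -0.69 for PARP9. The sensors and factors had 1.07 for IFI16, 0.84 for IRF1 and 0.48 for IRF7, and the remaining proteins 0.80 for IFI44, -0.31 for IFI27 and -1.02 for IFI44L. The pathway genes were TLR4 with 2.87, SLFN12 with 1.81, STING1 with 1.64, GBP2 with -1.50 and TNFSF10 with -2.91.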

How the results depend on the processing

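Every count of called members stayed within 1.5 times its value under each alternative run, except that without the shared types of probe sets 2 members instead of 8 fell in MDA-MB-231, because 5 of these had no value left among the 31 members that kept one and PARP9 lost its call on its other probe set. With 1 array left out at a time, the counts ran from 15 to 16 higher and 9 to 13 lower in MCF10A, 15 to 16 higher and 8 to 9 lower in MDA-MB-231, 14 to 16 and 11 to 13 for the difference of response, and 18 and 15 to 17 for the lines on vehicle. The replicate block left all counts as they were (15 and 12 in MCF10A, 15 and 8 in MDA-MB-231, 15 and 11, 18 and 15); IFIT1 lost its MCF10A call and IRF1 gained one, and in MCF10A each array correlated best with its own letter, in MDA-MB-231 not. Opposite directions, with a call in at least 1 of the 2 settings, came only with the choice of probe sets; OAS3 and PARP9 in MCF10A, SAMD9L in MDA-MB-231 and IFIH1 in the difference were called only under the alternative. Without the shared types, IFI44 was 0.72 and PARP9 -0.35 in MCF10A, OAS1 -0.29 and TRIM14 0.043 in MDA-MB-231, and the difference of response was -0.63 for EIF2AK2 and 0.31 for PARP9. With the mean of all probe sets, OAS3 was -0.29, IFIH1 -0.59 and IFI44 0.028 in MCF10A, SAMD9L was 0.19 in MDA-MB-231, and the difference of response was -0.12 for EIF2AK2 and 0.74 for IFIH1. In the difference of response, EIF2AK2 (0.13 to 0.17) lost its call without any of 10 single arrays. In MCF10A, IFIT1 (-0.29 to -0.21) lost its call without vehicle array A or D or 2DG array A, B or D, OASL (-0.22 to -0.17) without vehicle array A, B or D or 2DG array A, B or C, and HERC6 (-0.21 to -0.16) without vehicle array C or D or 2DG array A or B. Calls gained without a single array were OAS2, MX1, ISG15, IRF1 and XAF1 in MCF10A, RSAD2, SAMD9L and IFI44 in MDA-MB-231, OAS2, ISG15, IFIH1 and IRF9 for the difference, and EIF2AK2 and IFI27 on vehicle. With the mean of all probe sets, calls were lost for HERC6 in MCF10A (-0.10), OAS1 (0.10) and IFIH1 (0.15) in MDA-MB-231, and SAMD9L (-0.17), PARP9 (-0.19) and PARP14 (-0.17) in the difference. Calls gained with that mean were OAS3 and IFI44 in MDA-MB-231, IFIT5 and OAS1 in the difference, and EIF2AK2 on vehicle. OAS1 also gained a call in the difference without the shared types. On its chosen probe set, IRF1 in MCF10A (-0.17) was called under the dim-gene filter (adjusted p = 0.0426), under trended moderation (adjusted p = 0.0387) and when the MCF10A arrays were fitted alone (adjusted p = 0.013). The second IRF1 probe set rose there (0.20). RSAD2 (0.14) and SAMD9L (-0.16) in MDA-MB-231 were called under the dim-gene filter. The causes of these changes were not tested. Signal limits the dimmest probe sets, such as XAF1, OAS2 in MCF10A, CMPK2 in MDA-MB-231 and RSAD2 outside the MCF10A 2DG arrays.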
